A study of Mus musculus with 12 samples.

Results

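The signal recognition particle (SRP) is the ribonucleoprotein that recognises a signal peptide as it leaves the ribosome and brings the ribosome to the membrane of the endoplasmic reticulum (ER). Its RNA, 7SL, is made by RNA polymerase III and carries 6 kinds of protein in mammals. Here the levels of 9 genes were described: the mouse 7SL genes RN7S1 and RN7S2, the protein genes SRP9, SRP14, SRP19, SRP54A, SRP68 and SRP72, and RN7SK, which was grouped with them although 7SK is not an SRP RNA. The 9 genes were picked by symbol from the 13957 symbols in the deposited table, and the genotype difference of their RNAs was already known when they were picked, so those differences are given as a description with no test. All 9 were listed above the lesion and 8 below it, where SRP19 was not listed.

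RNA-seq was made from spinal cord segments just above and just below a contusion injury at thoracic vertebra 9, taken 14 days after the injury from male mice aged 4 months. All mice carried human ApoE4 in place of mouse ApoE, and all were injured. The 4 groups were ApoE4 synj1+/+ above, ApoE4 synj1+/- above, ApoE4 synj1+/+ below and ApoE4 synj1+/- below, with 3 libraries each and 12 in all. The synj1+/- mice carried 1 allele of synaptojanin 1, a lipid phosphatase that acts at the synapse, and the labels do not say whether 1 mouse gave a segment at each site. The paper lists 3 mice of each ApoE4 genotype for RNA-seq, so the libraries of both sites may come from the same mice. The labels name no separate litters or batches.

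The deposited values are 1 pooled value per group, so no spread between libraries, no interval and no p-value could be computed for any difference, and none was tested. Levels are FPKM, fragments scaled to transcript length and sequencing depth, and log2 ratios set synj1+/- over synj1+/+, as labelled, after adding 1 to the FPKM, as the deposited values already did. A difference of at least 1.5-fold on that scale is called past the 1.5-fold line. The targeted gene went against its label at both sites. Above the lesion SYNJ1 was listed at 1904 FPKM in synj1+/+ and at 2403 FPKM in the group labelled synj1+/-, a log2 ratio of 0.34. Below it the values were 1846 and 2592 FPKM, a log2 ratio of 0.49. Every genotype direction here is therefore a direction between labels, and whether the labels or the columns of the table were exchanged was not tested. The paper reports synj1 mRNA, measured by quantitative PCR above the lesion, as lower in ApoE4 synj1+/- than in ApoE4 synj1+/+ mice. It also states that genotypes were verified by PCR. APOE, read against the mouse genome although the mice carry the human gene, was listed at 766.3 and 547.5 FPKM above and at 476.2 and 563.1 FPKM below.

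In 7SL, the ends of the RNA fold into the Alu domain, which with SRP9 and SRP14 slows elongation while the ribosome is being delivered. The middle forms the S domain, where SRP19 helps the RNA fold so that SRP54, the GTPase that holds the signal peptide, can bind, and where SRP68 and SRP72 sit as a pair. The SRP receptor, made of SRPR and SRPRB, then passes the ribosome to the SEC61 channel. 7SK, also an RNA polymerase III product, works in the nucleus. With HEXIM1, LARP7 and MEPCE it holds the elongation kinase P-TEFb inactive. Neither RNA carries a poly(A) tail, and the library kit named in the labels is a poly(A)-selecting kit, while the same labels also call the RNA total and the libraries random primed.

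The sequence of 7SK is shown because it carries the element through which the RNA holds its protein partner. It is the GENCODE M21 transcript on GRCm38, written 5′ to 3′ with T for U. RN7SK lies at chr9:78175303-78175633 on the minus strand, a single-exon noncoding gene of 331 bases of which the first 300 are shown, chr9:78175334-78175633. The capitals in RN7SK mark every occurrence of the letters GATC in the stretch shown. Paired copies of that 4-letter word in the 5′ hairpin are the known contact of HEXIM1. The capitals mark letters only, and which of the marked copies pair was not analysed here.
RN7SK: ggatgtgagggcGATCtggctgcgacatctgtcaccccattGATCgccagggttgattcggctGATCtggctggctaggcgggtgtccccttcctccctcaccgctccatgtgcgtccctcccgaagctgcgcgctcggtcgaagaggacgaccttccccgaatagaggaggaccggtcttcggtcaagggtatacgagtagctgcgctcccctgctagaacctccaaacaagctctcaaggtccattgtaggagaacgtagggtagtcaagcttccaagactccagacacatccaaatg

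The GENCODE transcripts of RN7S1 and RN7S2, each 1 exon of a noncoding gene on chromosome 12, differed at 0 of 300 positions. Every one of the 201 windows of RN7S2 of 100 bases, the length of 1 read, was shared with RN7S1, and 74 of them also with RN7S6, a further gene of that family that was not listed. Reads cannot tell RN7S1 from RN7S2, so their values are in effect 1 measurement, and they depend on how reads with several matches were divided. Of the 232 such windows of RN7SK, 142 were shared with other annotated genes, most of all with Gm24447 and Gm26315. GATC starts at positions 13, 42 and 64 of RN7SK, counted from its 5′ end. It is a common word (its reverse complement is the same letters): 9.3% of the 7817 GENCODE transcripts of 281 to 381 bases held at least 3.

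7SL had lower listed values in the groups labelled synj1+/- at both sites, by more above the lesion than below it. Above the lesion RN7S1 was listed at 220.4 FPKM in synj1+/+ and at 57.24 FPKM in the group labelled synj1+/-. The corresponding values below it were 112.4 and 65.66 FPKM. The synj1+/+ group above had the highest listed value, and the order from high to low was synj1+/+ above, synj1+/+ below, synj1+/- below and synj1+/- above. Whether neighbours in that order differ beyond the spread between libraries could not be computed from pooled values. Above the lesion the RN7S1 log2 ratio was -1.93, or 3.8-fold lower, rank 13 from the lowest of 13647 genes. Below the lesion it was -0.77, or 1.7-fold lower, rank 320 of 12338. In bulk tissue, fewer cells of a type and less RNA per cell cannot be told apart.

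RN7S2, the copy of the same sequence, gave the same order of groups. Above the lesion its levels were 225.9 FPKM in synj1+/+ and 61.78 FPKM in the group labelled synj1+/-, and below it they were 116.5 and 71.19 FPKM. The log2 ratios of RN7S2 were -1.85 above, at rank 15, and -0.70 below, at rank 363. RN7S2 was listed at 1.02 to 1.08 times the FPKM of RN7S1 in the 4 groups. The sum of both genes was 446.3 and 119.0 FPKM above and 228.9 and 136.8 FPKM below.

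RN7SK followed the same direction at a lower level. Above the lesion it was listed at 32.65 FPKM in synj1+/+ and at 8.813 FPKM in the group labelled synj1+/-, and below it at 13.51 and 5.927 FPKM. The synj1+/+ group above was again the highest of the 4, but the lowest was synj1+/- below, where for RN7S1 it was synj1+/- above. The RN7SK log2 ratio was -1.78 above, at rank 19, and -1.07 below, at rank 142, which is 3.43-fold and 2.09-fold lower. The FPKM of RN7S1 over that of RN7SK was 6.75 and 6.49 above the lesion in synj1+/+ and in the group labelled synj1+/-, so both RNAs were lower there in nearly the same proportion. Below the lesion that ratio of levels was 8.32 and 11.1.

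**Figure D1:**
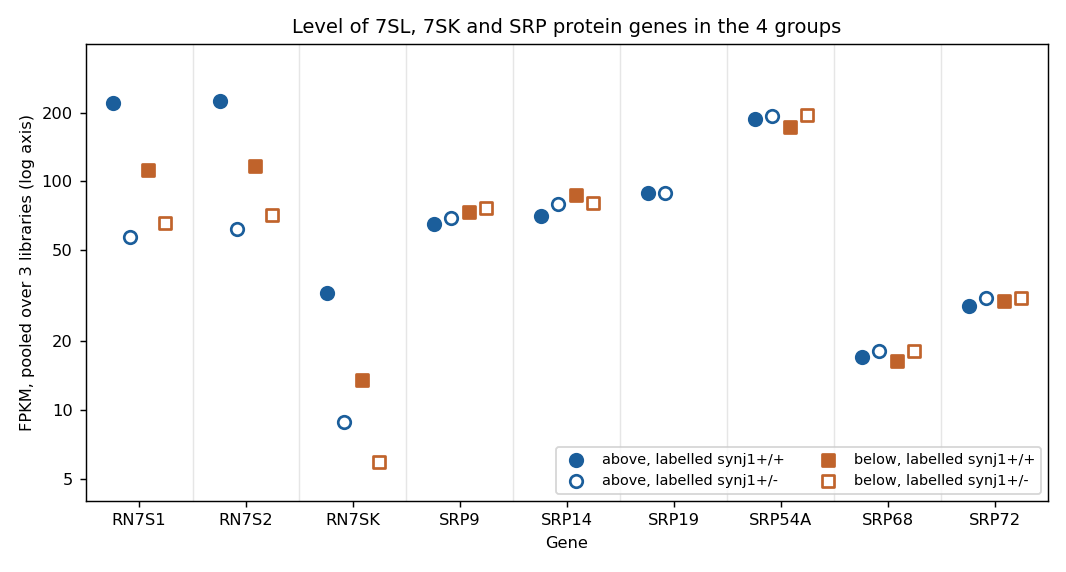
FPKM on a log axis for each of the 9 genes, with filled symbols for the groups labelled synj1+/+ and open symbols for those labelled synj1+/-, circles above and squares below the lesion. Each point is 1 pooled value over 3 libraries, with no error bar because no library values were used; RN7S1 spans 57.24 to 220.4 FPKM while SRP72 spans 28.51 to 30.9 FPKM.

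The protein genes of the particle were listed at nearly equal levels in both genotypes, with no member past the 1.5-fold line. Of the 9 members above the lesion, 3 were lower past the 1.5-fold line, RN7S1, RN7S2 and RN7SK, where 1.94% of all genes were lower and 0.791% higher by that much. Below the lesion the same 3 of 8 were lower, where 4.38% of all genes were lower and 1.16% higher. With 10 instead of 1 added to the FPKM, RN7SK below had a log2 ratio of -0.56 and was within the line, which left 2 members lower there, and at a 2-fold line 1 was. These shares stand beside the counts for scale only, since the genes were picked with this contrast known. None of the 6 SRP proteins above, and none of the 5 below, was past the line in either direction. Their median log2 ratio was 0.08 above and 0.06 below, beside medians of 0.00 and 0.01 over all genes.

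In the Alu domain, SRP9 was listed above the lesion at 65.29 FPKM in synj1+/+ and 69.43 FPKM in the group labelled synj1+/-, and below it at 73.58 and 76.89 FPKM. Its log2 ratios were 0.09 and 0.06. SRP14, its partner, was listed at 70.75 and 79.96 FPKM above and at 87.24 and 80.86 FPKM below. The direction of SRP14 was therefore opposite at the 2 sites, 0.17 above and -0.11 below, and its lowest and highest levels were both in the synj1+/+ groups. Of the 5537 windows of 100 bases in SRP9 transcripts, 15.2% were shared with Gm17968 or Gm13736, and none of those of SRP14 were shared with another gene.

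In the S domain, SRP19 was listed at 89.37 and 89.25 FPKM above the lesion, a log2 ratio of 0.00. SRP68 was listed at 17.13 and 18.05 FPKM above and at 16.44 and 18.18 FPKM below, with log2 ratios of 0.07 and 0.14. Its partner SRP72 was listed at 28.51 and 30.83 FPKM above and at 29.86 and 30.9 FPKM below, with log2 ratios of 0.11 and 0.05. SRP68 and SRP72 were higher by a small margin in the group labelled synj1+/- at both sites, as was SRP9.

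SRP54A, the GTPase subunit, was listed at 187.8 and 192.7 FPKM above the lesion and at 173.5 and 195.6 FPKM below it, with log2 ratios of 0.04 and 0.17. Mouse has a tandem of 3 such genes on chromosome 12, and 66.6% of the windows of SRP54A were shared with SRP54B or SRP54C, so the division of reads among them is uncertain. SRP54B had log2 ratios of -0.04 and 0.20, and SRP54C of 0.07 and 0.01. The sum over the 3 genes was 271.8 and 277.7 FPKM above and 254.0 and 281.5 FPKM below, with log2 ratios of 0.03 and 0.15.

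**Figure D2:**
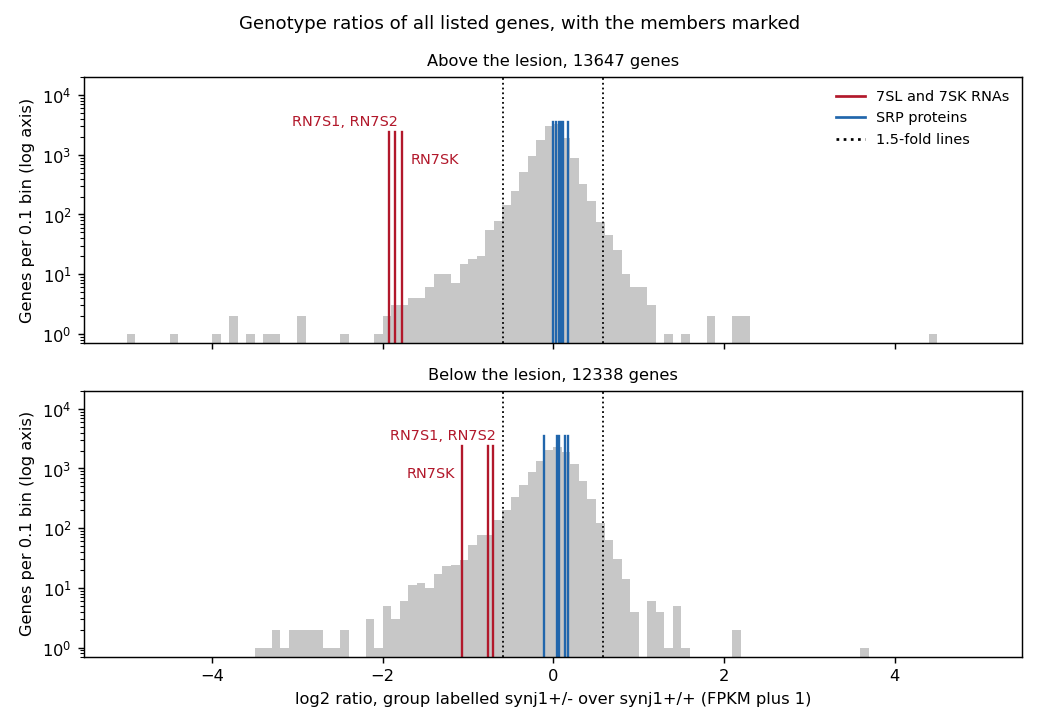
Number of genes per 0.1 bin of the log2 ratio of the group labelled synj1+/- over synj1+/+ on a log axis, above the lesion (13647 genes) and below it (12338 genes), with dotted lines at 1.5-fold. RN7S1, RN7S2 and RN7SK (red) lie in the low tail, between -1.93 and -1.78 above and between -1.07 and -0.70 below, and the SRP proteins (blue) lie within -0.11 to 0.17.

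Between the sites, the levels of the RNAs differed within the synj1+/+ label. There RN7S1 was lower below the lesion than above it by a log2 ratio of -0.96, RN7S2 of -0.95 and RN7SK of -1.21, at ranks 28, 31 and 15 from the lowest of 12023 genes listed at both sites. All 3 were past the 1.5-fold line, where 1.36% of all genes were lower and 3.24% higher. In the groups labelled synj1+/-, RN7S1 was listed somewhat higher below the lesion, with a log2 ratio of 0.19, and RN7S2 likewise with 0.20, while RN7SK was lower with -0.50. None of those 3 was past the line, where 0.832% of all genes were lower and 1.43% higher. The 5 SRP proteins listed at both sites lay between -0.11 and 0.30 in synj1+/+ and between 0.00 and 0.15 in the groups labelled synj1+/-. The sites were normalized in separate runs, so these ratios across sites set values of a pair of runs side by side, where the median gene had a log2 ratio of 0.00 in synj1+/+ and 0.02 in the groups labelled synj1+/-.

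The genes whose pair of genotype ratios was nearest to that of RN7S1, by straight-line distance over the log2 ratios above and below among 12012 genes, were RN7S2 at a distance of 0.10, RN7SK at 0.33, the noncoding C030034L19RIK at 0.36, GM9780 at 0.53 and GM14295 at 0.53. Nearest to RN7SK were C030034L19RIK at 0.08, RN7S1 at 0.33, RN7S2 at 0.37, GM9780 at 0.42 and the zinc finger gene ZBTB16 at 0.42. C030034L19RIK, a long noncoding RNA, was listed at 7.432 and 1.349 FPKM above the lesion and at 4.543 and 1.552 FPKM below it. ZBTB16 was listed at 20.13 and 7.201 FPKM above and at 18.72 and 9.097 FPKM below. Likeness over 2 pooled ratios is a description only. RN7S2 has the same sequence as RN7S1, so its nearness follows from shared reads, and RN7SK was picked with its difference known. The places of these members are therefore no finding.

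The rule for the members used no RNA class, and other RNAs of the class of 7SL and 7SK were listed in the same contrast. By RefSeq annotation on GRCm38.p6, which matched 13952 of the 13957 symbols, 23 other short structured RNAs were listed above the lesion, namely small nuclear and nucleolar RNAs, guide RNAs of Cajal bodies and the RNA of RNase P. Of these 23, 21 were lower past the 1.5-fold line in the group labelled synj1+/- and 0 higher. Of the 13127 protein-coding genes 1.71% were lower past the line, and of the 431 long noncoding RNAs 3.48%, with medians of 0.00 and 0.04. The 2 that were within the line were LOC115486847, a small nucleolar RNA with a log2 ratio of -0.47, and the guide RNA Gm22009 with -0.14. Below the lesion, 10 others were listed, of which 7 were lower past the line and 1 higher, beside 4.36% of 11860 protein-coding genes lower. An RNA enters such a table when it is high in either group, and 10 of the 23 above were listed at 0 in the group labelled synj1+/- while 0 were listed at 0 in synj1+/+. In all, 18 of the 23 were under 1 FPKM in the group labelled synj1+/- and 0 in synj1+/+, so most of them could be listed only through synj1+/+ and had to differ. Their count is given as a description and is no evidence that the class differs from messenger RNAs. The 5 with at least 1 FPKM in both groups above the lesion were RNU2-10, RPPH1, the small nuclear RNA genes Gm23971 and Gm26316, with log2 ratios of -2.97 and -1.18, and Gm22009. The 23 are therefore not all short RNAs of the mouse, and some carry equal values, such as the small nuclear RNA genes Gm25679 and Gm22317, both at 18.72 and 0.4427 FPKM. Whether genes of the 23 share reads was not checked, so they may not be separate measurements.

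RNU2-10, a gene of the U2 RNA of the spliceosome, was listed at 23.42 and 1.37 FPKM above the lesion, a log2 ratio of -3.37, and at 6.252 and 2.487 FPKM below, a log2 ratio of -1.06. RPPH1, the RNA of RNase P and like 7SL and 7SK a product of RNA polymerase III, was listed at 13.54 and 5.737 FPKM above and at 9.258 and 3.204 FPKM below, with log2 ratios of -1.11 and -1.29. Unlike that of RN7S1, the difference of RPPH1 was listed as larger below than above. SNORA73B, a small nucleolar RNA, was lower above (3.067 and 0.4817 FPKM, log2 ratio -1.46) but higher below (2.183 and 3.174 FPKM, log2 ratio 0.39). The 1 that was past the line upwards, the small nuclear RNA gene Gm22973, was listed below the lesion at 0 in synj1+/+ and at 1.764 FPKM in the group labelled synj1+/-. Of the 9 short RNAs other than members listed at both sites, 8 were lower at both in the groups labelled synj1+/-, beside 29.1% of all 12023 genes, but 5 of the 9 were under 1 FPKM in such a group at a site at least. Several of the 9, RNU2-10 among them, are small nuclear RNA genes of 187 to 191 bases on chromosome 11. Whether they share reads was not checked, so the 9 may not be separate measurements and the count is a description only. Of those 9, 6 had their highest level of the 4 groups in synj1+/+ above, and 5 had the lower log2 ratio above.

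**Figure D3:**
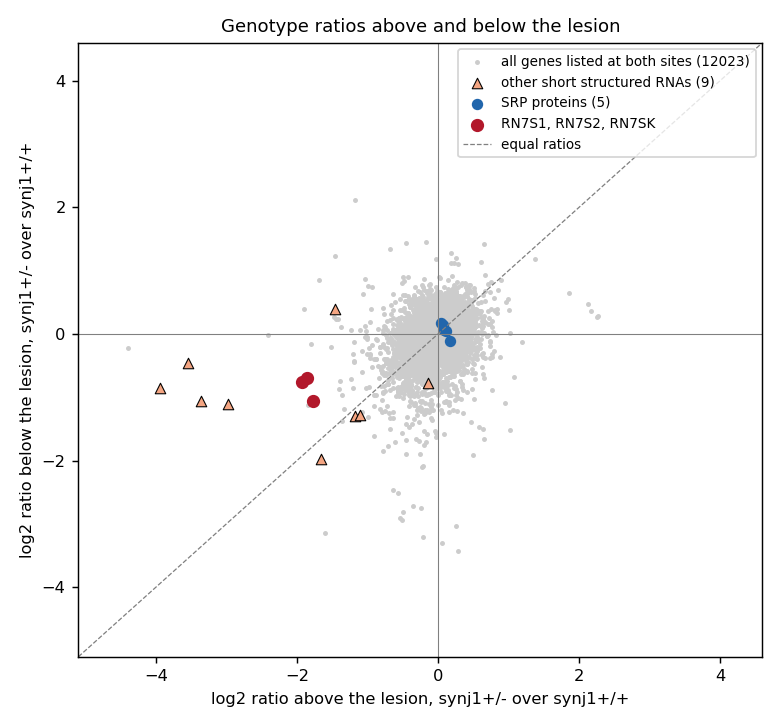
Log2 ratio of the group labelled synj1+/- over synj1+/+ above the lesion (x axis) against below it (y axis), 1 point per gene for 12023 genes listed at both sites, with a dashed line of equal ratios. RN7S1, RN7S2 and RN7SK (red) lie at the lower left with 7 of 9 other short structured RNAs (triangles), SNORA73B lies above 0 on the y axis, Gm22009 lies near 0 on the x axis, and the 5 SRP proteins (blue) lie near the origin.

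Short and long genes had medians near 0, but short genes were past the line more often in both directions at both sites. With the short structured RNAs and members left out, genes whose longest transcript had more than 400 and at most 800 bases (287 above the lesion) had a median log2 ratio of 0.05, with 4.88% lower and 7.67% higher past the line. Those of more than 6400 bases (1665 genes) had a median of -0.07, with 1.02% lower and 0.24% higher. Below the lesion the same bins had medians of -0.01 and 0.01, with 9.49% and 3.09% lower and 4.74% and 0.55% higher. Only 6 such genes had at most 400 bases at each site, with medians of 0.23 above and -0.08 below, too few to set beside 7SL. NEAT1, a long nuclear noncoding RNA, had log2 ratios of -0.02 above and -0.19 below, and MALAT1, whose mature end carries no poly(A) tail, of -0.20 and -0.41. The RNA integrity and the share of non-polyadenylated RNA in each library were not analysed here, and their part in the levels of 7SL and 7SK was not tested.

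The listed genes around the RNA genes were within the 1.5-fold line, as were most genes. Within 50 kb of RN7S1, RN7S2 or RN7SK, 10 genes were listed at each site, a set chosen after the members' values were seen, and 0 were past the line at either site. Above the lesion 1.94% of all genes were lower past the line and 0.791% higher, and below it 4.38% and 1.16%. With 10 genes, a count of 0 is near those shares and does not set the region apart. RPS29, a ribosomal protein gene next to RN7S1, had log2 ratios of 0.11 above and -0.11 below. NEMF, which senses stalled ribosomes and lies near RN7S2, had 0.15 and 0.17. C920006O11RIK, a noncoding gene 280 bases from RN7SK, had 0.25 and 0.38.

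Of the other machinery of the ER route, 1 gene was past the 1.5-fold line, SEC61B below the lesion, while several lists lay mostly under 0. Of all genes, 51.0% had a log2 ratio under 0 above and 47.2% below. Past the line, 1.94% of all genes were lower and 0.791% higher above, and 4.38% and 1.16% below. A count of 1 gene over these lists is not above those shares. SRPR, the GTPase subunit of the SRP receptor, was listed at 20.62 and 18.84 FPKM above and at 21.85 and 19.78 FPKM below, with log2 ratios of -0.12 and -0.14. SRPRB, the membrane anchor of SRPR, had log2 ratios of -0.09 and 0.00. Of the SEC61 channel and its associated proteins, 0 of 12 listed genes were past the line above, and below 1 of 12 was lower: SEC61B, the small beta subunit of the channel, at 26.11 and 16.73 FPKM with a log2 ratio of -0.61. The same gene had a log2 ratio of -0.05 above. The median of that list was -0.01 above and -0.18 below, where 10 of 12 genes were under 0 and the lower quartile of all genes was -0.15. SEC61A2 had the highest mean FPKM of both groups of the list above, with a log2 ratio of 0.01, and SSR2, of the TRAP complex, below, with -0.15.

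Signal peptidase, which removes the signal peptide, had 0 of 5 genes past the line above and 0 of 4 below, where all 4 had a log2 ratio under 0. SEC11C, with its highest mean FPKM of both groups, had log2 ratios of 0.33 and -0.03. The oligosaccharyltransferase, which adds sugar to chains entering the ER, had 0 of 12 and 0 of 9, and the highest mean FPKM of both groups was that of TUSC3 above, with a log2 ratio of 0.34, and of DAD1 below, with 0.01. The routes into the membrane that do not use SRP had 0 of 17 and 0 of 16, and BAG6, with the highest mean FPKM of both groups, had log2 ratios of -0.07 and 0.09. ER chaperones and stress genes had 0 of 19 and 0 of 18 past the line, but 17 of 19 above and 17 of 18 below had a log2 ratio under 0, with medians of -0.19 and -0.20. Among them HSPA5, the main chaperone of the ER lumen, was listed at 397.5 and 301.8 FPKM above and at 329.9 and 306.6 FPKM below, with log2 ratios of -0.40 and -0.11. SDF2L1, a partner of HSPA5, had -0.52 above, the lowest of the list there, and MANF, an ER-retained secreted factor, -0.50 below.

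Around 7SK, 1 of 12 genes above and 1 of 10 below was past the line. In both cases it was RN7SK itself, a member picked with its difference known. Past the line, 1.94% of all genes were lower and 0.791% higher above, and 4.38% and 1.16% below. Proteins within the line are thus near the share of all genes, and these counts do not set them apart. HEXIM1, the protein that 7SK uses to inhibit P-TEFb, was listed at 27.57 and 26.63 FPKM above and at 29.31 and 28.52 FPKM below. LARP7, which binds the 3′ end of 7SK, had log2 ratios of 0.09 and 0.01, and MEPCE, which caps its 5′ end, of 0.06 and -0.26. CDK9, the kinase of P-TEFb, had 0.09 and -0.04. HEXIM2, a relative of HEXIM1, had 0.33 and 0.34, the highest of the list at both sites, and SRSF2, with the highest mean FPKM of both groups, had 0.05 and -0.09.

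RNA polymerase III and its factors had 0 of 28 listed genes past the line above and 0 of 26 below, with medians of -0.01 and -0.04. POLR3A, the largest subunit, was listed at 16.69 and 11.16 FPKM above, a log2 ratio of -0.54 and the lowest of the list, and at 12.64 and 13.95 FPKM below, a log2 ratio of 0.13. SNAPC4, with the highest mean FPKM of both groups of the list and part of the complex that starts 7SK transcription, had 0.21 and 0.02. Of factors that bind or trim small RNAs, 0 of 13 and 0 of 11 were past the line. Beside the shares of all genes past the line, these counts and those of RNA polymerase III do not set either list apart. SSB, the La protein that protects the 3′ ends of new polymerase III transcripts, was listed at 175.5 and 214.7 FPKM above and at 217.9 and 206.3 FPKM below, with log2 ratios of 0.29 and -0.08.

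**Figure D4:**
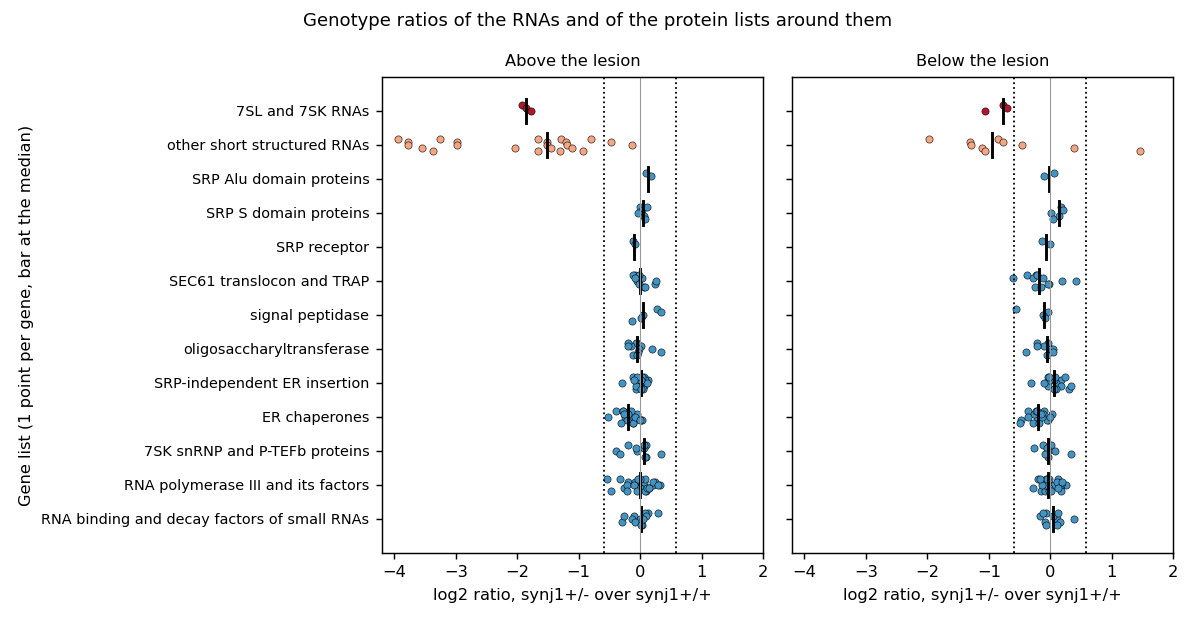
Log2 ratio of the group labelled synj1+/- over synj1+/+ for each gene (points) of the RNA classes and of the protein lists, above the lesion (left) and below it (right), with a bar at each median and dotted lines at 1.5-fold. The 7SL and 7SK RNAs and most other short structured RNAs lie left of the lower line at both sites, and SEC61B below is the 1 gene of the protein lists past a line; RN7SK is left out of the 7SK protein list.

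Markers of several cell types also differed between the labels. Of all genes, 1.94% were lower past the line and 0.791% higher above the lesion, and 4.38% and 1.16% below it. Of 10 microglia and macrophage markers, 3 were lower past the line above the lesion (C1QA, C1QB and TREM2, all close to it, with log2 ratios from -0.59) and 4 of 7 listed below (AIF1, C1QA, C1QB and CD68). With ratios centred on the median gene, only 1 of those 3 was past the line above. Their summed level was 1749 and 1249 FPKM above and 1767 and 1162 FPKM below, with C1QA the highest. Of 6 fibroblast markers, COL3A1 alone was past the line above, with a log2 ratio of -1.60, and 5 were lower below, where the summed level was 417.2 and 98.48 FPKM and the median -2.86. All 5 listed erythroid markers were higher above, with a summed level of 248.5 and 1133 FPKM led by HBA-A1 and a median of 2.17, and 1 of 5, ALAS2, was higher below, with 629.2 and 824.7 FPKM. Of 6 endothelial markers, 0 were past the line above and 1, CDH5, was lower below, at 15.09 and 9.553 FPKM.

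Markers of the cells that make up most of the cord showed no gene past the line. Neuron markers had 0 of 9 above and 0 of 7 below, with medians of 0.09 and 0.19 and a summed level of 10330 and 11640 FPKM above and 8446 and 10620 FPKM below, led by SNAP25. Astrocyte markers had 0 of 8 at each site, with medians of -0.21 and -0.18, and GFAP, with the highest mean FPKM of both groups, was listed at 12970 and 10580 FPKM above. Oligodendrocyte markers had 0 of 4 and 0 of 3, led by MOBP. None of the 7 plasma and B cell markers was listed. The part of blood, fibroblasts, microglia or macrophages in the levels of 7SL and 7SK was not tested.

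The level of a gene in these files also moved with how many transcript models it has. Above the lesion, the median FPKM in synj1+/+ was 9.35 over 1268 genes with 1 GENCODE transcript model and 304.0 over 424 genes with at least 16. RN7S1, RN7S2 and RN7SK have 1 model each and the SRP proteins 4 to 9, so levels of the RNAs were not compared with levels of the proteins. The gene named as highest in a list, and the summed levels of marker lists, carry this dependence and say nothing firm about which gene of a list is the more abundant.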

How the data were processed

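RNA was sequenced from 12 libraries, 3 for each of 4 groups, and groups were taken from the labels. The authors extracted RNA with TRIzol, prepared TruSeq v2 libraries, cut every library of a site at random to the read number of its smallest one, and scaled by the upper quartile. The submitters' processing notes name STAR 2.5.4b, Cuffdiff 1.3.0 and GRCm38.p6. The authors' deposited table gives 1 pooled FPKM value per group and gene, read here as FPKM plus 1 because the lowest value is exactly 1. It has 0 columns of single libraries, so depth per library, SD, tests and intervals could not be computed from its values. Its further columns of fold change, log2 fold change, p-value, q-value and significance were not used, nor was the shorter list made from them.

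Log2 ratios, ranks and counts past 1.5-fold were computed in Python 3.11.15 with pandas 2.3.3 and numpy 2.4.6, on all listed genes, and tested on simulated data. Ratios add 1 to the FPKM, which understates differences of low genes. Sequences, positions and transcript models are from GENCODE M21, and RNA classes from RefSeq. The members, 21 lists and the rules for naming genes (members, SYNJ1, APOE, list genes past the line or most abundant, and the 5 nearest genes) were chosen with earlier results of these data known. The alternatives tried were another added FPKM (0.1 or 10), a minimum mean FPKM (1 or 10), centring on the median gene, scaling to the 75th percentile, and other fold lines (1.25 or 2). The sequence and exact position of the 7SL genes are not reported here.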

Additional observations from a re-analysis of the deposited data

How the results depend on the processing

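The 33 log2 ratios of members, over genotype and over site, kept their direction where they were past the 1.5-fold line and stayed on their side of it in 195 of 196 alternatives; the exception was RN7SK below the lesion, at -0.56 with 10 added to the FPKM. RN7SK had no value at a minimum mean of 10 FPKM below the lesion, nor between the sites in the groups labelled synj1+/-. RN7S1 ranged from -1.94 to -1.78 above and from -0.79 to -0.69 below, and RN7SK from -1.88 to -1.18 and from -1.17 to -0.56. At a 2-fold line 1 member was lower below the lesion and 1 was lower in synj1+/+ below against above; at the laxer fold line 1 was lower in the groups labelled synj1+/- below against above.

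Counts of all genes moved most. Above the lesion the 265 lower genes became 71 with 10 added, 125 at a minimum mean of 10 FPKM, 1017 at the laxer fold line and 77 at 2-fold, and the 108 higher became 165 with 0.1 added, 14, 50, 570 and 18. Below it the 541 lower became 188, 298, 1424 and 161, and the 143 higher became 232, 22, 71, 995 and 20. Of 672 list counts under alternatives, 628 stayed within 1.5 times; microglia and macrophage markers lower above went from 3 to 1 when centred on the median gene. No paired analysis was possible because the values are pooled over libraries, and leaving out each replicate could not be run for the same reason. Precision cannot be read from these values, and the copies of 7SL share all their reads.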

Other observations

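Replication-dependent histone messengers, which end in a stem-loop and mostly carry no poly(A) tail, were looked at after the members' values were seen. Of 5 listed above the lesion and 4 below, 0 were past the 1.5-fold line at either site. Past it, 1.94% of all genes were lower and 0.791% higher above, and 4.38% and 1.16% below, so such counts are near those shares. Their median log2 ratio, the group labelled synj1+/- over synj1+/+, was -0.18 above and -0.42 below, where 7SL stood at -1.93 for RN7S1 above and -0.77 below. The histone ratios ran from -0.34 to 0.06 above and from -0.52 to -0.23 below. The lower quartile of all genes was -0.12 above and -0.15 below. The part of a missing poly(A) tail in the levels of 7SL or of the histone messengers was not tested. HIST1H2AP was listed at 9.841 and 8.567 FPKM above and at 13.96 and 9.774 FPKM below, and HIST1H2AO had the lowest log2 ratio of the set, -0.52, below the lesion.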
